A study of Mus musculus with 6 samples.

Results

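The hippocampus of young mice carries both receptors for corticosterone, and 8 genes of this system were followed here in mice exposed to neonatal hyperoxia. They are Nr3c1 and Nr3c2, which encode the glucocorticoid and the mineralocorticoid receptor, the response genes Fkbp5, Sgk1, Tsc22d3 and Zbtb16, the steroid-activating enzyme gene Hsd11b1, and Crhr1, which encodes a receptor for corticotropin-releasing hormone. The genes were chosen by name from the 24935 genes of the deposited table, and each name matched 1 gene. C57BL/6 pups were kept with their dams in room air or in 85% oxygen from postnatal day (P) 2, and left hippocampal RNA was taken at P14 from 3 air-exposed and 3 hyperoxia-exposed mice, with 1 polyA library per mouse. Pups of both sexes were used in the study, and no sex, litter or dam is given for the sequenced mice. Because the dams shared the chamber, a response of the pup and a response to an exposed mother cannot be told apart. No gene was deleted or overexpressed, so no gene checks the group labels, and every direction below follows the group named in the column headings of the deposited table. The signs in the tables of the study run opposite to these headings for ARC, EGR1, FOS and PROX1 alike. The changes of FOS and PROX1 passed the threshold neither in the study nor here. Its Results text, however, describes the mRNA of ARC and EGR1 as decreased with hyperoxia, and its Discussion describes their expression as increased. In its staining of CA1, the area of the myelin protein CNPase was smaller with hyperoxia, and under the headings 7 of 8 oligodendrocyte genes were lower. Cnp, the gene of the stained protein, was not among these 7 (log2 fold change −0.30, limma adjusted p = 0.12), and its groups overlapped. The GFAP-stained area of CA1 was larger with hyperoxia, whereas Gfap changed by 0.06 (limma adjusted p = 0.73). Which sign holds was not settled here, and exchanged headings would turn every direction given.

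Corticosterone passes into cells and binds receptors that are held ready by HSP90 and its co-chaperones. The mineralocorticoid receptor binds it with high affinity and is largely occupied at rest, whereas the glucocorticoid receptor has lower affinity and fills during stress and at the daily peak. Bound receptors enter the nucleus and switch on genes such as Fkbp5, whose product lowers the affinity of the receptor in a short feedback loop. In mice the first postnatal weeks include a stretch of low and weakly responsive adrenal output, and the hippocampus is among the brain regions richest in both receptors.

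The libraries held 30384052 to 38746972 reads on genes, and the members had from 352 reads (Crhr1) to 5938 reads (Nr3c2) in a library. Errors marked SD are the spread between libraries, which holds both the differences between mice and the counting error. Errors marked SE are standard errors of the log2 fold change from limma, whose variance is moderated over genes. Each value is a normalized count, the read count of a gene divided by 1 size factor per library, and the values of a group are listed in the order of its libraries 1, 2 and 3. Each gene was tested with limma on log2 of the normalized count plus 1, hyperoxia minus air, and was called where the Benjamini-Hochberg adjusted p over 17778 tested genes was under 0.05. An exact permutation test of 3 mice against 3 cannot give a p below 0.1. Dentate granule, CA1 and CA3 markers were measured in every library. Hyperoxia library 2 lay apart from the other 2 hyperoxia libraries on the second principal component (19.5% of the variance). Hyperoxia library 3 had a summed count of 8 choroid plexus markers of 8252, against 551 to 1464 in the other 5 libraries. Xist was high in 1 library of each group, air library 3 (13962) and hyperoxia library 1 (19417), and was at 15.4 to 40.8 in the other 4. The Y-linked genes Ddx3y, Uty, Kdm5d and Eif2s3y were at 0 to 4.11 in air library 3 and hyperoxia library 1. In the other 4 libraries they were at 335 to 2494. By these genes, air library 3 and hyperoxia library 1 came from females and the other 4 from males.

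All 8 members passed the filter of a mean of at least 10. Of these, 3 were called, with Crhr1 and Nr3c1 higher and Fkbp5 lower in hyperoxia-exposed mice. Over all genes tested, 30.5% were called, 14.9% as higher and 15.6% as lower, so a share of 37.5% is near that of all genes. The groups did not overlap in 4 members (the 3 called and Hsd11b1), and in 46.1% of all genes tested, 22.3% with hyperoxia higher and 23.8% with hyperoxia lower. The median log2 fold change of the members was 0.20, beside −0.0072 over all genes tested. Without air library 1 only Crhr1 was called, whereas 4 members were called without hyperoxia library 2 (Zbtb16 added) or hyperoxia library 3 (Nr3c2 added), and 3 with the Xist level as a covariate.

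**Figure D1:**
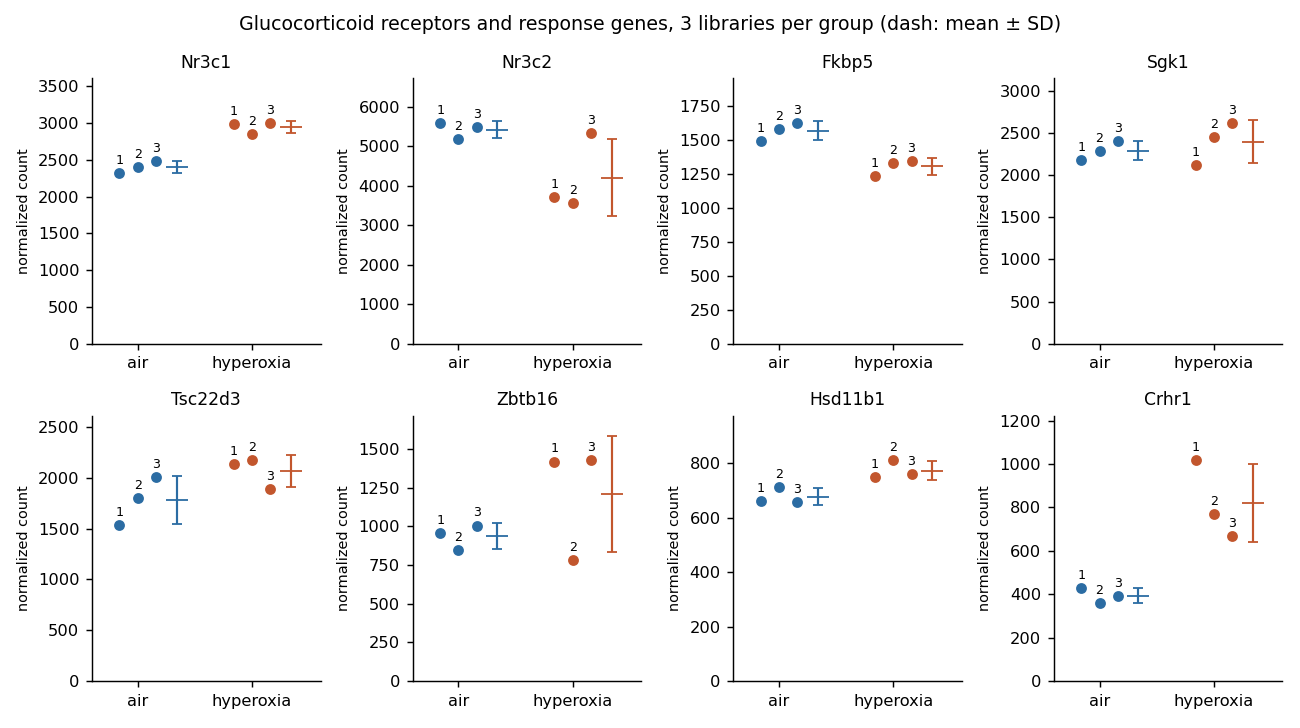
Normalized count (vertical axis, from 0) of the 8 genes in 3 air and 3 hyperoxia libraries, numbered as in the deposited columns, with the mean and SD of each group beside the points. The groups are apart in Nr3c1, Fkbp5, Hsd11b1 and Crhr1, 1 hyperoxia library lies at the air level in Nr3c2 (library 3) and below it in Zbtb16 (library 2).

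Nr3c1 (ENSMUSG00000024431.14), the gene of the glucocorticoid receptor, lies at 39410545 to 39519421 of chromosome 18 (minus strand, GENCODE M21 on GRCm38). Its normalized count was 2322, 2395 and 2489.6 in the air libraries, and 2988, 2856 and 3006 in the hyperoxia libraries. Every hyperoxia library stood above every air library, and both groups were tight. The mean rose from 2402 ± 83.9 to 2949.96 ± 81.5 (SD, n = 3 each), a log2 fold change of 0.30 ± 0.07 (SE, limma adjusted p = 0.0098) or 22.8% more transcript. The difference was larger than the spread between mice and was called under 16 of 18 alternatives. It fell to 0.10 (limma adjusted p = 0.22) once the values were corrected for transcript length and GC content within each library, and the call was also lost without air library 1 (0.27, limma adjusted p = 0.054). The exons of Nr3c1 join to 7684 bp, and its longest transcript has a GC content of 42.2%.

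Nr3c2 (ENSMUSG00000031618.13), the gene of the mineralocorticoid receptor, lies at 76899442 to 77245012 of chromosome 8 (plus strand), and 247 bp of its exons overlap Gm10649, a gene with low counts on the other strand. In air the normalized count was 5592, 5169 and 5474 in libraries 1, 2 and 3. In hyperoxia it was 3698 in library 1, 3567 in library 2 and 5320.2 in library 3. Libraries 1 and 2 lay well below all air libraries, while library 3 lay within the air range, so the groups overlapped. The means of 5412 ± 218 (SD, n = 3) and 4195 ± 976 (SD, n = 3) differed by a log2 fold change of −0.39 ± 0.14 (SE, limma adjusted p = 0.054), just short of the threshold. Without hyperoxia library 3 the change was −0.57 and was called (limma adjusted p = 6.3e-04). With all libraries, the length and GC correction, which removed the call of Nr3c1, called Nr3c2 (−0.48, limma adjusted p = 0.0086). DESeq2 (−0.36, DESeq2 adjusted p = 0.035) and the column number as a replicate block (−0.39, limma adjusted p = 0.013) also called it. These were the 4 of 18 alternatives that called the gene, with adjusted p from 6.3e-04 to 0.18 over all 18.

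Markers of granule cells of the dentate gyrus, such as C1ql2 and Plekha2, were lower in hyperoxia. The summed count of 8 granule cell markers was 20394, 19914 and 20238 in the air libraries, and 11856, 11842 and 17573 in the hyperoxia libraries. Of these markers, 6 fell and none rose. Like Nr3c2, the marker sum was lowest in hyperoxia libraries 1 and 2 and nearer the air level in hyperoxia library 3. In whole tissue, fewer granule cells and less RNA per granule cell cannot be told apart, and the part of either in the Nr3c2 values was not tested.

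The balance of the receptors was read as the ratio of Nr3c2 to Nr3c1 within each library, which does not depend on the size factor. The ratio was 2.41, 2.16 and 2.20 in the air libraries, and 1.24, 1.25 and 1.77 in the hyperoxia libraries. All hyperoxia libraries were below all air libraries, although library 3 was again nearest to air. The mean log2 ratio went from 1.17 ± 0.08 to 0.48 ± 0.29 (SD, n = 3 each), a difference of −0.69 whose extremes on leaving out a library were −0.86 and −0.60. Thus the mineralocorticoid receptor transcript kept the larger count in every library, by a smaller margin under hyperoxia. The ratio combines genes picked with earlier results known and is given without a test.

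**Figure D2:**
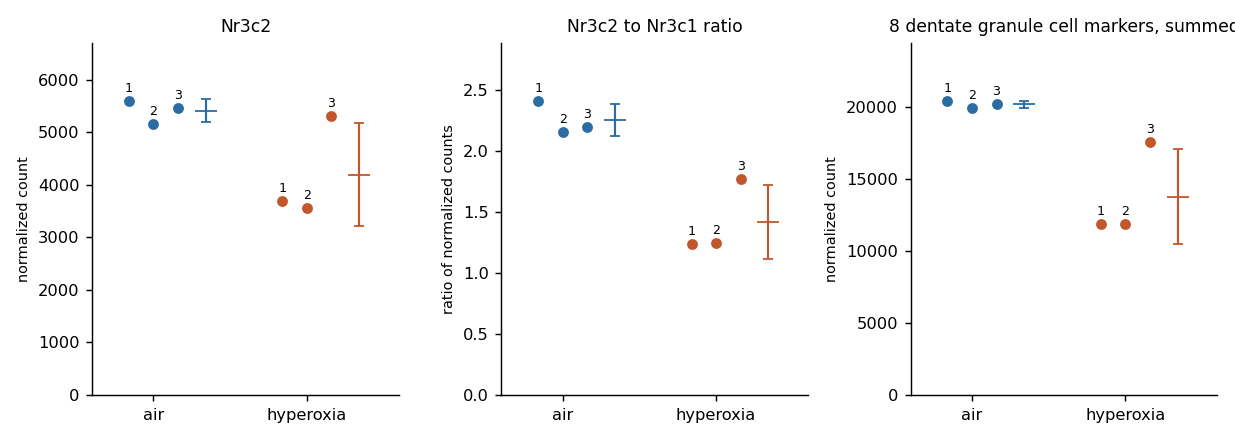
Nr3c2 normalized count, ratio of Nr3c2 to Nr3c1, and summed normalized count of 8 dentate granule cell markers in each library, with group mean and SD. The ratio is at 2.16 to 2.41 in air and 1.24 to 1.77 in hyperoxia, and hyperoxia library 3 is the hyperoxia library nearest to air in all 3 panels.

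Crhr1 (ENSMUSG00000018634.10), at 104132855 to 104175523 of chromosome 11 (plus strand), showed the largest change of the 8 genes. It encodes the main brain receptor for corticotropin-releasing hormone, the peptide that starts the adrenal stress axis and also acts locally in the hippocampus. Its normalized count was 427, 358 and 392 in the air libraries, and 1019, 772 and 669.9 in the hyperoxia libraries. The lowest hyperoxia library exceeded the highest air library by a wide margin. Mean counts of 392 ± 34.2 (SD, n = 3) and 820.4 ± 179.6 (SD, n = 3) gave a log2 fold change of 1.04 ± 0.15 (SE, limma adjusted p = 0.0014), or 2.06-fold, with a 95% interval of 0.72 to 1.37. All 18 alternatives called Crhr1, with log2 fold changes from 0.88 to 1.18.

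Its ligand moved with it. Crh, the gene of the hormone itself, was 90.4, 70.2 and 58.5 in the air libraries and 126, 148 and 111 in the hyperoxia libraries, a log2 fold change of 0.82 ± 0.19 (SE, limma adjusted p = 0.011). Crhbp, which encodes a secreted protein that binds and buffers the hormone, was 547, 586 and 462 in air and 755, 812 and 679.5 in hyperoxia, a change of 0.50 ± 0.11 (SE, limma adjusted p = 0.0095). In both genes the groups were fully apart, and all 18 alternatives called them. The other receptor, Crhr2, had low counts of 31.1 to 42.1 in air and 43.3 to 55.5 in hyperoxia, and its change of 0.47 ± 0.22 (SE, limma adjusted p = 0.13) did not pass. Of the 7 listed genes of this group, these 3 were tested, with 2 higher and none lower. Ucn, Ucn2 and Mc2r had at most 6 reads in a library, and Ucn3 was not analysed here.

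Crhr1 is also strongly expressed by cells of the neocortex, which borders the dissected tissue. The summed count of 8 neocortex and subiculum markers was 7528 to 8754 in air and 9092 to 13331 in hyperoxia, with 4 markers higher and none lower. Among them, Tshz2 was 109.9 to 145 in air and 762, 533 and 461 in the hyperoxia libraries. The order of the hyperoxia libraries, 1 above 2 above 3, was the same in Crhr1, Tshz2 and the marker sum. Among interneuron markers, which include the cells that make the hormone, 1 rose (Vip) and 1 fell (Pvalb) of 8. The part of neighbouring tissue or of interneurons in the Crhr1 and Crh values was not tested.

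**Figure D3:**
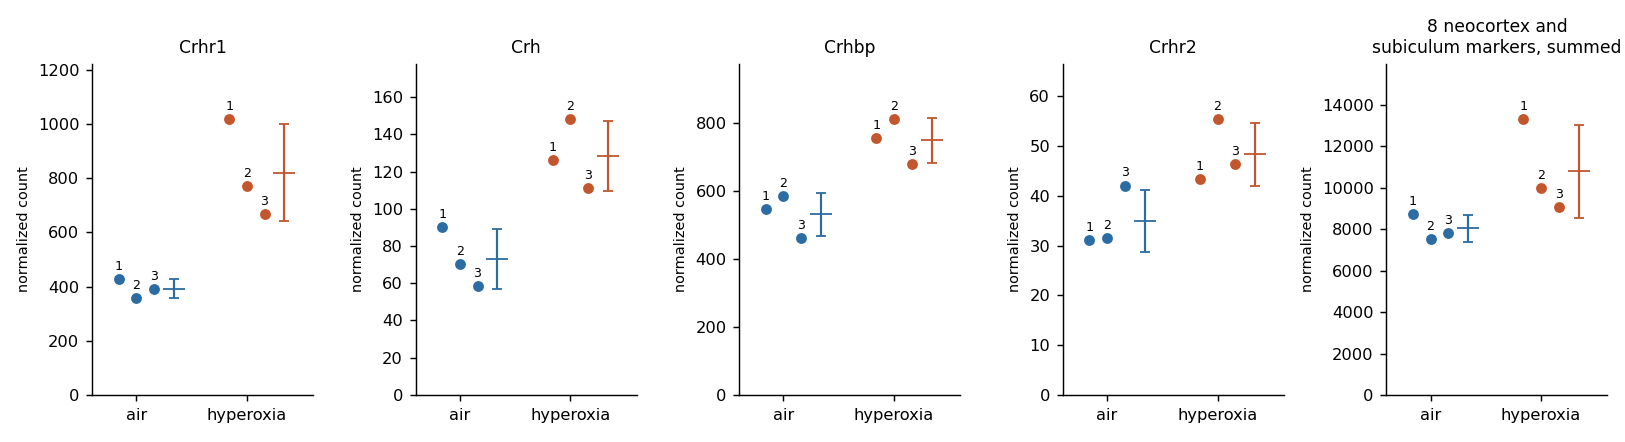
Normalized counts of Crhr1, Crh, Crhbp and Crhr2, and the summed count of 8 neocortex and subiculum markers, in each library with group mean and SD (vertical axes from 0, scaled per panel). In every panel all hyperoxia libraries lie above all air libraries, although the test did not call Crhr2.

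The response genes were described next, beginning with the promoter sequences that bear on them. Bound receptors recognize a palindrome of AGAACA and TGTTCT set apart by any 3 bases, and this motif and its single arm (AGAACA, searched on both strands, which also counts the arms of the palindrome) were sought in the 250 bases before each RefSeq transcription start (GRCm38.p6). Windows of 6 members were searched, 13 in all, those of Crhr1, Fkbp5, Hsd11b1, Nr3c2, Sgk1 and Tsc22d3. No window of Nr3c1 or Zbtb16 was searched, so whether either motif lies before these genes was not tested. The whole palindrome was in 1 of them, before the start of an Sgk1 transcript at position 21993890 of chromosome 10, from −189 to −175. It was in 3 of the 32851 windows of all genes (0.00913%), with no chromosome left out, and the single arm was in 16.1%. The single arm was in 3 of the 6 Sgk1 windows and in 1 of the 3 Tsc22d3 windows, and in none of the other 4 members. A match of letters is a description of these windows and says nothing about binding here, and elements outside the windows were not searched. The Sgk1 window is printed for its palindrome, the Fkbp5 window because this was the only response gene called, and the Crhr1 window because this gene changed most. Capitals mark the palindrome and any further single arm, and the Fkbp5 and Crhr1 windows hold neither.
Sgk1, chr10:21993640-21993889, plus strand: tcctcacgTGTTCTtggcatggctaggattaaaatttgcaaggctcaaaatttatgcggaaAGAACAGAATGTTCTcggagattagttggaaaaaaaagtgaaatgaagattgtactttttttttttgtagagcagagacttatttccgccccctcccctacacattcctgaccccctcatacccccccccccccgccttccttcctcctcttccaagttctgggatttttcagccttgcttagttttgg
Fkbp5, chr17:28486150-28486399, minus strand: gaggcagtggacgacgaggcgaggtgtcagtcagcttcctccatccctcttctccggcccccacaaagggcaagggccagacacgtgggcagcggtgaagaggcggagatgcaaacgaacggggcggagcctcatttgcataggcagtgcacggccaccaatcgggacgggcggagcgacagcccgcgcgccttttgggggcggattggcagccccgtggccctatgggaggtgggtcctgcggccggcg
Crhr1, chr11:104132531-104132780, plus strand: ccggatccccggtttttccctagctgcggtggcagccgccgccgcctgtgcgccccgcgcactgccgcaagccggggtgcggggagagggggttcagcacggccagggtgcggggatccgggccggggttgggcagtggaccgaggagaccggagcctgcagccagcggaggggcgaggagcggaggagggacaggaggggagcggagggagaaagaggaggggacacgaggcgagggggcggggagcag

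Fkbp5 (ENSMUSG00000024222.16), at 28399094 to 28517527 of chromosome 17 (minus strand), encodes FKBP51, the co-chaperone through which the glucocorticoid receptor limits its own sensitivity. The air libraries had a normalized count of 1492, 1580.3 and 1625, and the hyperoxia libraries had 1233, 1329 and 1345.5. The hyperoxia libraries were all below the air libraries. The mean fell from 1566 ± 67.9 (SD, n = 3) to 1303 ± 60.7 (SD, n = 3), a log2 fold change of −0.27 ± 0.07 (SE, limma adjusted p = 0.024) or a drop to 0.832 of the air level. This call was the least firm of the 3. It held under 13 of the 18 alternatives and was lost in limma without the trend (adjusted p = 0.056) and without air library 1 (0.053), 2 (0.095) or 3 (0.10) or hyperoxia library 1 (0.097). The direction was the same in all of them, with changes from −0.38 to −0.23.

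Oligodendrocyte markers moved in the same direction as Fkbp5, with 7 of 8 lower and none higher. Their summed count was 217623 to 330867 in air and 149331 to 182355 in hyperoxia, and the part of these cells in the Fkbp5 values was not tested. Over the 6 libraries, the protein-coding gene with the pattern most like Fkbp5 was Mag, a myelin glycoprotein gene on that list (Pearson r = 0.998).

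Sgk1 (ENSMUSG00000019970.15), at 21882184 to 21999903 of chromosome 10 (plus strand), encodes a kinase that is induced by corticosterone and acts on ion channels and transcription factors. The normalized count was 2185, 2292 and 2407 in the air libraries, and 2119.7, 2456 and 2628 in the hyperoxia libraries. The groups overlapped, with hyperoxia library 1 the lowest of all and hyperoxia library 3 the highest. The change of 0.06 ± 0.09 (SE, limma adjusted p = 0.64) had a 95% interval of −0.14 to 0.26 on the log2 scale, and no alternative called it.

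Tsc22d3 (ENSMUSG00000031431.13), at 140539528 to 140600659 of chromosome X (minus strand), encodes GILZ, a leucine zipper protein that carries part of the anti-inflammatory action of glucocorticoids. Its normalized count spread widely among air-exposed mice, with 1538, 1803 and 2010.2 in libraries 1, 2 and 3. In hyperoxia it was 2138 and 2175 in libraries 1 and 2 and 1889 in library 3, which fell below air library 3. The log2 fold change of 0.22 ± 0.11 (SE, limma adjusted p = 0.14, 95% interval −0.02 to 0.45) was within the replicate spread, and none of the 18 alternatives called it. It was 0.12 (limma adjusted p = 0.46) without air library 1 and 0.31 (limma adjusted p = 0.077) without air library 3.

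Zbtb16 (ENSMUSG00000066687.5), at 48654297 to 48836222 of chromosome 9 (minus strand), encodes the zinc finger transcription factor PLZF and responds to glucocorticoids in many tissues. It was 961, 847 and 1006 in the air libraries. In hyperoxia it was 1421 in library 1, 780.1 in library 2 and 1430.4 in library 3. Libraries 1 and 3 stood above all air libraries and library 2 below all of them, so the mean change of 0.32 ± 0.21 (SE, limma adjusted p = 0.27) was not called. Without hyperoxia library 2 it was 0.61 (limma adjusted p = 2.9e-04), and this was the only alternative that called the gene. Without hyperoxia library 1 it was 0.18 (limma adjusted p = 0.60), and without hyperoxia library 3 it was 0.17 (limma adjusted p = 0.56).

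The gene Klf9, a Krüppel-like factor induced by glucocorticoids in neurons, had nearly the same pattern across the 6 libraries (Pearson r = 0.998 with Zbtb16). Klf9 was 4893 to 5470.0 in air and 6799, 4713 and 6906 in the hyperoxia libraries, and its change of 0.22 ± 0.13 (SE, limma adjusted p = 0.24) passed only once hyperoxia library 2 was left out (0.40, limma adjusted p = 6.2e-04). Both genes passed only without hyperoxia library 2, which follows from their like patterns and is not a separate result. Leaving out that library also raised the calls over all genes from 5425 to 7771.

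Hsd11b1 (ENSMUSG00000016194.14), at 193221634 to 193264075 of chromosome 1 (minus strand), encodes the enzyme that regenerates active corticosterone inside cells. Its normalized count was 663, 713 and 659 in the air libraries, and 749, 813 and 759.6 in the hyperoxia libraries. All hyperoxia libraries were above all air libraries by a small step. The change of 0.19 ± 0.08 (SE, limma adjusted p = 0.10, 95% interval 0.01 to 0.37) did not pass the threshold, nor did it under any of the 18 alternatives.

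H6pd, which makes the NADPH that this enzyme needs, was called. It rose from 263, 243 and 232 in the air libraries to 347, 308 and 357 in the hyperoxia libraries, a log2 fold change of 0.45 ± 0.11 (SE, limma adjusted p = 0.012). The opposing enzyme gene, Hsd11b2, had only 2 to 9 reads in any library and was not tested. Cyp11a1, which encodes the first enzyme of steroid synthesis, fell by 0.45 on the log2 scale (SE 0.11, limma adjusted p = 0.016), from 284 to 305 in air to 192 to 239 in hyperoxia. Srd5a1 and Akr1c14, whose enzymes reduce steroids, changed by 0.31 (limma adjusted p = 0.14) and 0.35 (limma adjusted p = 0.20). Without hyperoxia library 3 the change of Srd5a1 was 0.50 and passed (limma adjusted p = 0.0037), and without hyperoxia library 2 it was 0.18 (limma adjusted p = 0.28). Of the 12 listed genes that set local steroid, 6 were tested, with 1 higher and 1 lower. H6pd lost its call without air library 2 (limma adjusted p = 0.052) or 3 (0.051), and Cyp11a1 without air library 1 (0.051), 2 (0.074) or 3 (0.052).

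**Figure D4:**
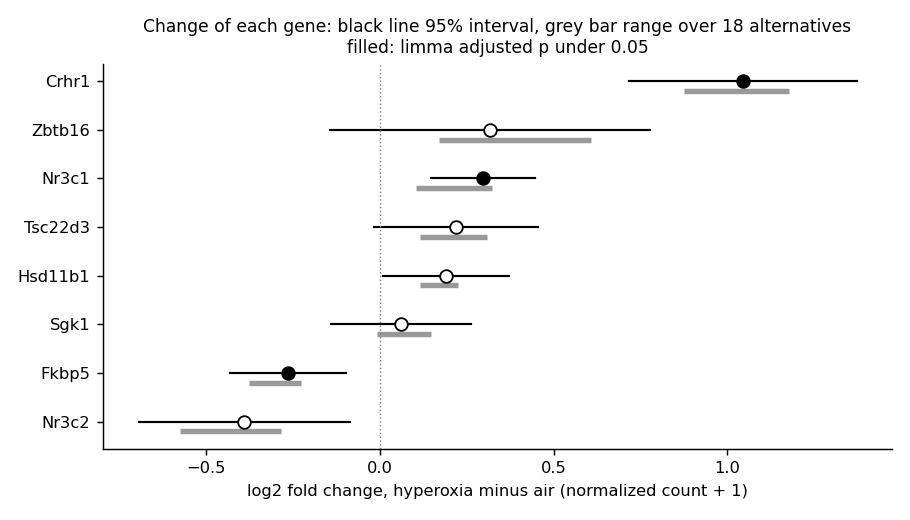
Log2 fold change of each of the 8 genes (hyperoxia minus air, horizontal axis), with the 95% interval as a black line and the range over 18 alternatives as a grey bar below it. Filled points mark Crhr1 (1.04), Nr3c1 (0.30) and Fkbp5 (−0.27), the genes with a limma adjusted p under 0.05.

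Levels of different genes were compared as normalized count per kilobase of exon. In air, Nr3c2 was highest (836 ± 33.7 per kb, SD, n = 3), followed by Sgk1 (468 ± 22.7), Tsc22d3 (411 ± 54.5) and Nr3c1 (313 ± 10.9). Below these lay Zbtb16 (178 ± 15.5), Fkbp5 (165 ± 7.17), Hsd11b1 (159.6 ± 7.12) and Crhr1 (159.5 ± 13.9). Sgk1 and Tsc22d3 overlapped between libraries, as did each neighbouring pair among the last 4, so their order is not resolved. In hyperoxia, Crhr1 reached 333 ± 73.0 per kb (SD, n = 3), where it overlapped Nr3c1 (384 ± 10.6), and Fkbp5 was lowest by this measure (138 ± 6.41). The order depends on the length taken. Per kb of the longest transcript, Fkbp5 was at 406 in air and 338 in hyperoxia, the latter above Crhr1 (333) and Zbtb16 (237). By that length Sgk1 (776) and Tsc22d3 (719) also stood above Nr3c2 (709) in hyperoxia.

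The co-chaperones that hold the receptors ready were examined as a list of 14 genes, of which 1 rose and 5 fell. Stip1, which encodes the protein that hands clients from HSP70 to HSP90, fell from 6762, 6165 and 5736 in the air libraries to 4164, 4787 and 4084 in the hyperoxia libraries, a log2 fold change of −0.52 ± 0.09 (SE, limma adjusted p = 0.0030). Stub1, the gene of the ubiquitin ligase CHIP, fell by 0.37 on the log2 scale (limma adjusted p = 0.0087), and Ppid, the gene of cyclophilin 40, fell by 0.31 (limma adjusted p = 0.016). Hsp90ab1, the constitutive HSP90 gene, was 74660 to 82965 in air and 59497 to 63795 in hyperoxia, a change of −0.34 ± 0.09 (SE, limma adjusted p = 0.015) that became −0.08 (limma adjusted p = 0.40) under quantile normalization. Without air library 1, air library 2 or hyperoxia library 1, limma adjusted p values were 0.071, 0.064 and 0.066 for Hsp90ab1 and 0.069, 0.0803 and 0.0501 for Ppid. The inducible Hsp90aa1 changed by 0.10 (limma adjusted p = 0.33). St13, the gene of the HSP70-interacting protein HIP, rose by 0.27 (limma adjusted p = 0.022) and was called under 11 of the 18 alternatives. Its change lay between 0.0078 and 0.32 over all 18, and only 1 of the 6 fits with a library left out called it. St13 was named after its value was seen.

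Fkbp4 encodes FKBP52, the counterpart that competes with FKBP51 for the receptor complex. It was 4469, 4496 and 4217 in the air libraries and 3401, 4172 and 3367 in the hyperoxia libraries. The groups were apart, but hyperoxia library 2 was close to air. Its change of −0.28 ± 0.09 (SE, limma adjusted p = 0.046) was nearly equal in size to that of Fkbp5 and was called under only 7 of the 18 alternatives. Without air library 1, 2 or 3 the limma adjusted p was 0.14, 0.15 and 0.086, and without hyperoxia library 1 or 3 it was 0.16 and 0.11.

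Among 12 coregulators of nuclear receptors, 1 rose, 1 fell and 10 were not called. Ncoa2, the gene of a coactivator of the glucocorticoid receptor, rose from 1741, 1564 and 1972 in the air libraries to 3141, 2245 and 3059.7 in the hyperoxia libraries, a log2 fold change of 0.67 ± 0.13 (SE, limma adjusted p = 0.0059). This call held under all 18 alternatives. Smarca4 (0.11) and Hdac3 (−0.11) had limma adjusted p values of 0.32 and 0.34, and Hdac3 passed without hyperoxia library 2 (−0.19, limma adjusted p = 0.026).

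A further 28 genes known to be induced by glucocorticoids split in direction, with 4 higher, 6 lower and 18 not called. Their median log2 fold change was −0.06. Among those that fell, Fam107a was 15719 to 18111 in air and 10360 to 12979 in hyperoxia, a change of −0.56 ± 0.10 (SE, limma adjusted p = 0.0031), and Errfi1, a feedback inhibitor of growth factor receptors, was 1314 to 1382 and 1012 to 1136, a change of −0.35 ± 0.08 (SE, limma adjusted p = 0.0084). The clock gene Per1 fell from 3128, 2666 and 3166 in the air libraries to 2346, 2100.2 and 2332 in the hyperoxia libraries, a change of −0.40 ± 0.09 (SE, limma adjusted p = 0.0086). Mt2, a metallothionein gene, fell at low counts, from 30.8 to 44.3 in air to 7.07 to 13.6 in hyperoxia (−1.64, limma adjusted p = 0.0055). In the other direction, Angptl4, a regulator of lipid uptake, rose from 123 to 141 in air to 190.1 to 285 in hyperoxia, a change of 0.81 ± 0.16 (SE, limma adjusted p = 0.0054). Dusp1, a phosphatase induced by both glucocorticoids and neuronal activity, changed by −0.09 (limma adjusted p = 0.63).

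Several of these genes also respond to neuronal activity, and by the column headings 7 of 8 immediate early genes fell while none rose. The tables of the study print the opposite sign for Arc, Egr1 and Fos, whereas its Results text describes Arc and Egr1 as decreased. The summed count of the 8 immediate early genes was 14673 to 16998 in air and 7059 to 8408 in hyperoxia. Its part in the values of Per1, Dusp1 and Sgk1 was not tested.

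Of 10 relatives and targets of SGK1, 3 rose and 1 fell. Foxo3, a transcription factor that SGK1 restrains, was 1728 to 1938 in air and 2481 to 3014 in hyperoxia, a log2 fold change of 0.59 ± 0.09 (SE, limma adjusted p = 0.0017). Sgk3, the endosomal relative, was 196 to 251 in air and 358 to 383 in hyperoxia, a change of 0.69 ± 0.12 (SE, limma adjusted p = 0.0031). Pdpk1, the kinase that activates both, rose by 0.43 (limma adjusted p = 0.021), and lost its call without air library 1 (0.085), 2 (0.067) or 3 (0.059) or hyperoxia library 1 (0.081). Scnn1a, a subunit of the sodium channel ENaC, fell from 350.1 to 398 in air to 243 to 294 in hyperoxia (−0.51 ± 0.11, SE, limma adjusted p = 0.0089). Nedd4l, the ubiquitin ligase that SGK1 inhibits, changed by −0.18 (limma adjusted p = 0.11), and gave −0.44 (limma adjusted p = 7.6e-04) after the length and GC correction and −0.24 (limma adjusted p = 0.0396) without hyperoxia library 3. That correction also brought Sgk3 to 0.36 (limma adjusted p = 0.078).

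**Figure D5:**
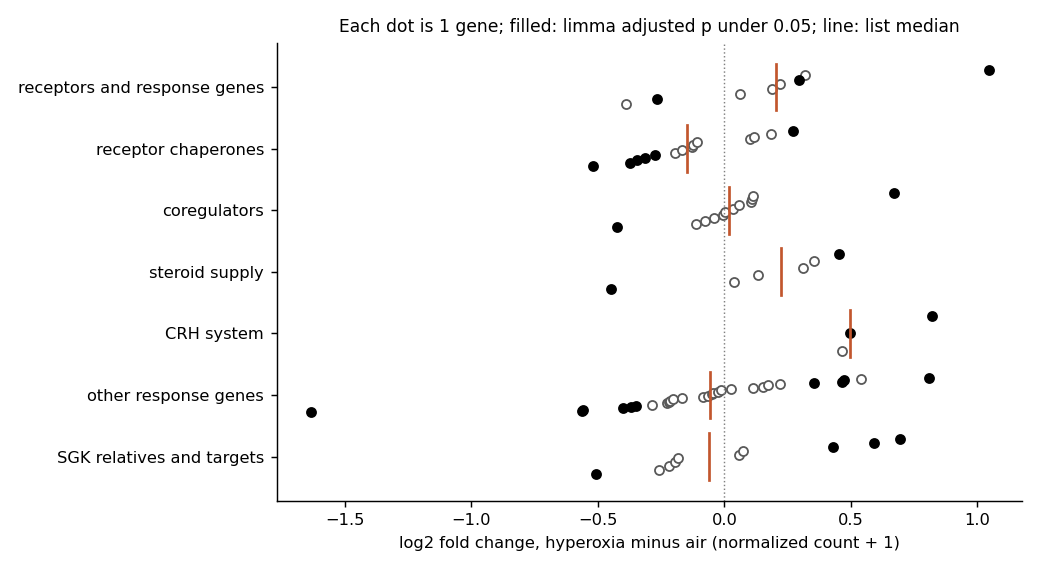
Log2 fold change (hyperoxia minus air, horizontal axis) of each tested gene in the 8 receptors and response genes and in 6 related lists, with filled dots for a limma adjusted p under 0.05 and a line at each list's median. Filled dots lie on both sides of 0 in every list except the corticotropin-releasing hormone (CRH) system.

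Together the 6 related lists held 83 genes, of which 73 were tested and 26 called, 12 higher and 14 lower. Without air library 1 or 2, 17 and 16 were called. The share of 35.6% with all libraries stood beside 30.5% of all genes tested. In none of the lists except the small hormone system did the called genes share a direction.

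The genes with the most similar pattern to the other members over the 6 libraries were Fgfr1op and Tmed8 for Nr3c1, Sbk3 and Arid3b for Nr3c2, Gpc4 (after Mag) for Fkbp5, and Astn2 and Cobl for Crhr1, each with a Pearson r of 0.994 to 0.998. For Hsd11b1 they were Rpl10 and Cbs (0.998 and 0.996), for Zbtb16 Csmd1 and Klf9 (0.999 and 0.998), for Tsc22d3 Atp2a1 and Kank2 (0.989 and 0.981), and for Sgk1 4930427A07Rik and 0610009B22Rik (0.981 and 0.978). These are the highest of 14930 correlations per gene over only 6 points, which share the library and the group, and are given as a description.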

How the data were processed

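Left hippocampal polyA RNA of 3 air-exposed and 3 hyperoxia-exposed P14 mice was sequenced by the authors in strand-specific paired-end libraries. The submitters' processing notes name FastQC, STAR 2.5.3a, HTSeq and DESeq2. For the genome build, the annotation and the strand setting of the counting, the sources used here give nothing. The authors deposited a signal per gene and library, a read count divided by 1 size factor per library, and a second table of their own comparison (mean, fold change, error, statistic and p-values), which was not used. Reads were recovered, since 100% of values came within 0.01 of a whole number once divided by what 1 read is worth. Column headings name a group and a running number, not the animal, so columns served as replicates of their group.

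Genes with a mean of at least 10 (17778) were tested with limma 3.58.1 with a mean-variance trend (R 4.3.3) on log2(value + 1), which understates changes of low genes. The 18 alternatives changed 1 choice each: the pseudocount (0.5 or 5), the filter (none, or 50 in place of 10), the scaling (quantile or TMM), limma without the trend, edgeR 4.0.16 and DESeq2 1.42.0 on the recovered reads, a correction that takes out the smooth dependence of a library's values on length and GC content (mgcv 1.9.3), a replicate block, each library left out, and the Xist level as a covariate, which was chosen after the values were seen. The tests were tried on simulated counts with known changes. Positions and lengths came from GENCODE M21 (GRCm38), which held 99.7% of the gene identifiers, 84.8% with the same version. Tables used Python 3.11.15, pandas 2.3.3 and numpy 2.4.6, and figures matplotlib 3.10.9.

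The members, the related lists and the tests were chosen with earlier results of these data known. The genes named are the 8 members, 11 related genes named whatever their values (Hsp90aa1, Fkbp4, Hsd11b2, H6pd, Crh, Crhr2, Crhbp, Per1, Dusp1, Klf9 and Nedd4l), the 4 genes with the lowest adjusted p of each related list, and the 2 protein-coding genes whose log2 values correlate best with each member. Some genes that this rule names are not reported here. The marker lists for astrocytes, microglia, endothelial cells and thalamus had 3 higher and 2 lower, 2 higher and 0 lower, 3 higher and 2 lower, and 3 higher and 0 lower genes of those tested, CA1 had 3 higher and 1 lower, and CA3 had 1 higher and 3 lower. Groups of 3 are too small to test for single outlying libraries.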

Additional observations from a re-analysis of the deposited data

How the results depend on the processing

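Over the 18 alternatives, the 8 members gave 144 values, of which 131 kept the direction and the side of the threshold, 7 lost and 5 gained a call, and 1 changed sign, that of Sgk1, which lay between −0.0071 (without hyperoxia library 3) and 0.148 (without hyperoxia library 1). Among the related genes named, 482 of 519 values kept both, 30 lost and 6 gained a call, and Dusp1 changed sign, between −0.197 (without hyperoxia library 1) and 0.0101 (without hyperoxia library 3). With each library left out in turn, between 3056 (air library 1) and 7771 (hyperoxia library 2) genes were called over the table, against 5425 with all libraries, and 3083 and 3375 without air library 2 and hyperoxia library 1. Likewise 1 to 4 of the 8 members were called, against 3, and 16 (air library 2) to 37 (hyperoxia library 2) of the related genes, against 26, with 17 without air library 1. The difference in the log2 ratio of the receptors was varied only by dropping the pseudocount and by leaving out each library, and stayed between −0.86 and −0.60. The length and GC correction, which gave 0.10 for Nr3c1 and −0.48 for Nr3c2, was not applied to the ratio. Per kilobase of the longest transcript, the air level was 915 for Nr3c2, 741 for Sgk1, 620.2 for Tsc22d3, 373 for Nr3c1, 406 for Fkbp5 and 343 for Hsd11b1. With the column number as a replicate block, 6211 genes and 4 members were called, Nr3c2 among them (limma adjusted p = 0.013). Same-numbered libraries deviated together with correlations of −0.08, 0.13 and 0.10, and libraries did not all correlate best with their own number, so the numbers were not taken to pair the mice. The Xist covariate changed no member's call. Depth limits only the genes with few reads, such as Hsd11b2, Ucn and Mc2r.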
